A study of Mus musculus with 2 samples.

Results

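Wide distal open regions were the vehicle ATAC-seq peaks that spanned 1000 bp or more and lay more than 1 kb from every protein-coding start site of the GENCODE basic set on the autosomes. Starts of coding genes that only the full annotation or RefSeq lists were not used, so some regions hold one. They numbered 972, or 0.925% of the 105033 distal vehicle peaks and 21.4% (95% Wilson interval 20.2 to 22.6) of the 4538 vehicle peaks of that width. The libraries came from OT-I CD8+ T cells of WT genotype; OT-I is a T cell receptor transgene specific for a peptide of ovalbumin. Both cultures received the OVA257-264 peptide and ran for 48 h, one with vehicle and one with TAMos, and CD8+ T cells were sorted from each culture, about 50000 per library. TAMos were CD11b+Ly6G-Ly6Chigh cells taken from spleens of mice that carried LLC tumours. Each condition had 1 library, so every difference below compares 2 libraries, has no replicate check and carries no p-value. Width in vehicle chose the regions, and vehicle coverage, vehicle summit number and the vehicle side of each ratio therefore describe the choice.

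ATAC-seq reads mark DNA that a transposase can reach. Away from promoters, such DNA is often an enhancer, where transcription factors displace nucleosomes, and T cell activation opens many enhancers through factors such as AP-1, NFAT and NF-kB. A long open interval can hold several separate summits, each the local maximum of reads, and long or clustered enhancers are known from genes that define a cell type, among them T cell regulators such as Bach2 and Prdm1.

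Sequence was read at RefSeq start sites, in windows of 300 bases (GRCm38.p6, the assembly of the mm10 coordinates), because 62 of the regions contained such a window whole. These windows belonged to 67 genes, 58 of them lncRNA genes and 9 protein-coding. They were rich in CpG, with a median of 20 CpG per window against 9 in the 310 windows inside narrower distal vehicle peaks and 7 in all 25748 windows. Median GC content was 59.3%, 54.7% and 52.7%. Of the lncRNA windows shown, 3 lie in the region with the highest TAMo to vehicle ratio among those holding a lncRNA window (Gm16191, chr17:28925017-28925316, plus strand), the region with the lowest ratio (Gm30771, chr7:38061030-38061329, plus strand) and the widest one (Gm40770, chr10:117418056-117418355, minus strand). The other 2 are Chaserr (chr7:73558346-73558645, minus strand), which lies beside Chd2, and 1700029M03Rik (chr1:164960637-164960936, plus strand), which lies near the chemokine gene Xcl1. Capitals mark matches to the motifs named below on either strand.
Gm16191: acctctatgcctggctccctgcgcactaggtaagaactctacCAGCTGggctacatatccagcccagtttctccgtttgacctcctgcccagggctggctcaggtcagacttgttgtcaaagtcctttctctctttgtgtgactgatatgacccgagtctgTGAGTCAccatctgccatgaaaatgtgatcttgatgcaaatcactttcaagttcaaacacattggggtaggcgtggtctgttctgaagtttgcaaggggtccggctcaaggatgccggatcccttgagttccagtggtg
Gm30771: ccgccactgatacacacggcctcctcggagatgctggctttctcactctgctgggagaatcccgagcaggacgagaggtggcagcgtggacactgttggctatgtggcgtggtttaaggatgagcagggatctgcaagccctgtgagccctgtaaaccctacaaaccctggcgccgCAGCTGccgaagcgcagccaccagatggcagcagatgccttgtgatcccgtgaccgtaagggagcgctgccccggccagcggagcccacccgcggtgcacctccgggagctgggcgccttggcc
Gm40770: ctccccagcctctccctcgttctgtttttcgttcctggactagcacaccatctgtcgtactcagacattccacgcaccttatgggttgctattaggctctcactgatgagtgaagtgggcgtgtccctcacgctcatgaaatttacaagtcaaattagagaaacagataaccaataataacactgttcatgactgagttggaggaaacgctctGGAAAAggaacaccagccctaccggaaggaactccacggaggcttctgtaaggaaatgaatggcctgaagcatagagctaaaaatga
Chaserr: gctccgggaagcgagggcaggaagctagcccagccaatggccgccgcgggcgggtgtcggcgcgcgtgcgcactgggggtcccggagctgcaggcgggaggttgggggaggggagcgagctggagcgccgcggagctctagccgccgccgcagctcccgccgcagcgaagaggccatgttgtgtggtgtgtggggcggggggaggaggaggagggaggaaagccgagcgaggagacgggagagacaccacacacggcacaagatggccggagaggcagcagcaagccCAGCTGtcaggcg
1700029M03Rik: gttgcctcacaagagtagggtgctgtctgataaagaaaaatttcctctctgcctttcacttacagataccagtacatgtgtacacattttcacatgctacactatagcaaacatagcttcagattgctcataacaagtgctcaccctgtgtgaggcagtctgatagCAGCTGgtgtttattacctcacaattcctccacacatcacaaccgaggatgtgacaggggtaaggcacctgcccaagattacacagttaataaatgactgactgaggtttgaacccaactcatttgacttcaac

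Gm16191 held an AP-1 letter match and an E-box match, whereas the other windows had E-box matches only, except Gm40770, which had an NFAT match. Across windows, the AP-1 letters TGANTCA stood in 11.9% of those inside wide distal regions (8 of 67, interval 6.18 to 21.8), in 20% inside narrower distal peaks and in 7.97% of all windows. The E-box letters CAGCTG stood in 23.9%, 20.3% and 16.3%. The NFAT letters GGAAAA stood in 14.9%, 21.6% and 23.5%, and the RUNX letters TGTGGTT in 7.46%, 12.6% and 5.38%. With 67 windows, the intervals of the wide distal share included the narrower-peak share for each of these 4 motifs. ETS (CCGGAAGT or CAGGAAGT), T-box (AGGTGTGA), TCF1/LEF1 (CTTTGATN) and interferon response letters stood in 2, 1, 5 and 3 of the 67 windows. NF-kB and CTCF core letters stood in 0 of 67, which allows a share of up to 4.48% (3 of 67). In all windows these 6 stood in 7.22%, 1.30%, 3.72%, 3.53%, 0.416% and 0.377%. Matches could overlap one another, and a match is a run of letters, not a site shown to be bound.

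Also inside the regions were 5 miRNA genes, Mirlet7i, Mir193a, Mir7671, Mir8096 and Mir8120. The mature forms of 3 of them are shown with the seed in capitals, since a miRNA's seed selects its targets, and no seed was shared among them. let-7 miRNAs are known to restrain CD8+ T cell differentiation into effectors.
mmu-let-7i-5p: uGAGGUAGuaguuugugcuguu
mmu-miR-193a-3p: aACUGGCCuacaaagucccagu
mmu-miR-7671-5p: aGGCUCCGcucuggcuagcuucc

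The region that held Mirlet7i (chr10:122985220-122986640) had 310 vehicle and 346 TAMo reads at its highest summit, a log2 ratio of -0.14 (95% interval -0.37 to 0.08) after depth scaling. The Mir193a region (chr11:79710657-79712093) had 257 and 387 reads, a log2 ratio of 0.29 (0.06 to 0.52). The Mir7671 region (chr11:53762975-53764222) lay 5979 bp from the start of Irf1, an interferon-response transcription factor, and had 617 and 728 reads (-0.06, interval -0.22 to 0.10). All 3 were matched by a TAMo peak of over 1000 bp, and the intervals of 2 of the 3 spanned 0.

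The vehicle and TAMo lists held 127423 and 179414 distinct peaks. The most frequent background of the peak caller, used here as a measure of depth, was 4.71 reads in vehicle and 5.80 in TAMo, 1.23 times more. A log2 ratio here is the TAMo coverage over the vehicle coverage at each library's highest summit, each divided by that background. Its interval is an exact binomial interval and covers counting error alone, and reads copied by PCR are not independent molecules. Over all 109631 vehicle peaks with a TAMo summit the median log2 ratio was 0.28. Promoters of all 9 CD8 T cell markers had a summit in both libraries. Among 14 myeloid markers, 4 had one in vehicle and 6 in TAMo, with summed coverage of 790 and 1283 reads before depth scaling. Most of both sums came from Cd68 (510 and 661 reads) and Cebpa (237 and 316). Csf1r was listed at 0 in vehicle and 100 reads in TAMo, Itgam at 0 and 118, Adgre1 at 0 and 31 and Spi1 at 25 and 57. Fcgr1 went the other way, at 18 and 0. Lyz2, Ccr2, Mpo, Ly6c2, Ly6g, S100a8 and S100a9 were listed at 0 in both, and the part of myeloid cells in the ratios was not tested. No wide distal region lay nearest to a gene of the myeloid list.

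The wide distal regions were between 1000 and 3586 bp long, with a median of 1117 bp, and 57 of them reached 1500 bp. Their highest vehicle summit had a median of 415 reads (quartiles 252 and 629), against 57 in narrower distal peaks. The 106 regions of up to 20 bp above the width limit had a median of 334.5 vehicle reads, and 49.1% had a wide TAMo peak. The 118 distal peaks of up to 20 bp below it had a median of 362 reads, and 34.7% had a wide TAMo peak. Coverage on both sides of the limit was similar. By position of the highest summit, 548 regions (56.4%) were intergenic, 376 (38.7%) intronic and 48 (4.94%) exonic. Narrower distal peaks were more often intronic, at 49.8%, and less often intergenic, at 46.0%. The median distance to the nearest protein-coding start was 24470 bp in wide distal regions and 23255 bp in narrower ones, and 113 regions (11.6%) lay over 100 kb from any such start.

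Almost every region was a group of summits. The 972 regions held 3253 vehicle summits, and 431 regions held 3, 292 held 4 and 154 held 2. Only 5 had a single summit. At least 2 summits were present in 99.5% of the regions, 12.4% of narrower distal peaks and 99.6% of vehicle peaks of 1000 bp or more within 1 kb of a coding start, called wide promoter peaks below. Neighbouring summits stood a median of 305 bp apart (quartiles 243 and 385), and 286 bp apart in wide promoter peaks. The highest summit had a median of 2.95 times the coverage of the lowest one in the same region, and in 82.6% of the regions it lay in the middle 60% of the interval. TAMo had 3140 summits over the same regions. It had more than vehicle in 169 regions, as many in 560 and fewer in 243.

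**Figure D1:**
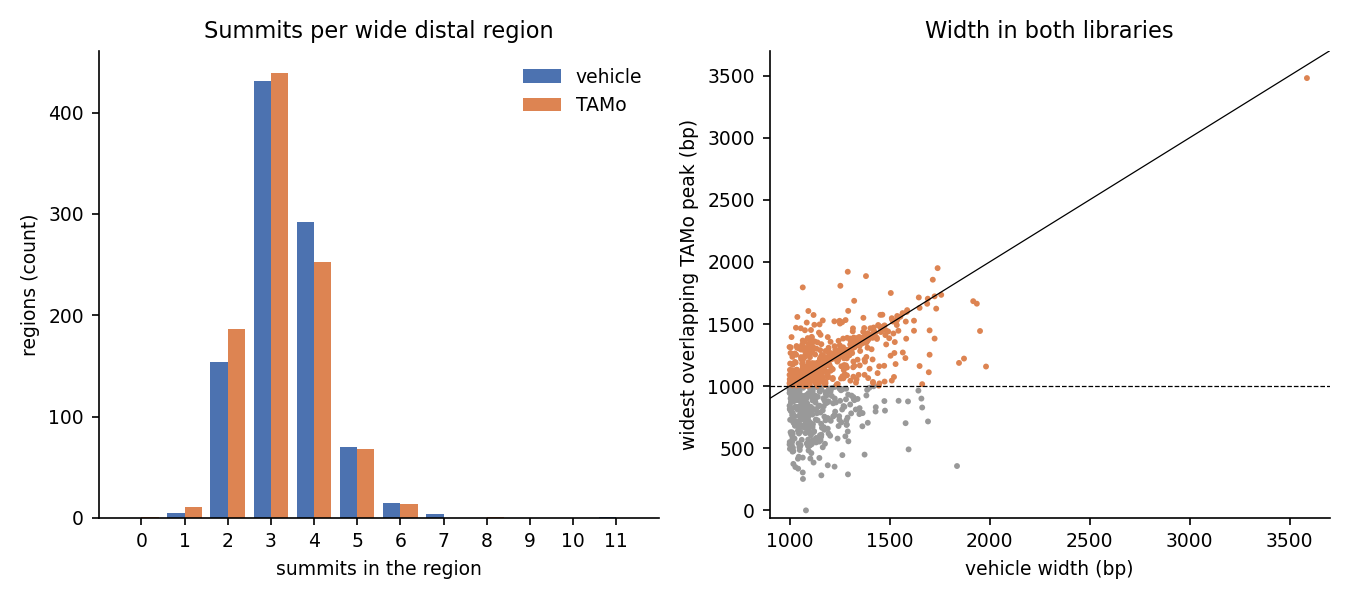
Left, number of wide distal regions (y axis, count) by number of summits (x axis) in the vehicle and TAMo libraries. Right, vehicle width (x axis, bp) against the widest overlapping TAMo peak (y axis, bp), 1 point per region; the solid line is equal width, the dashed line 1000 bp, and the 628 coloured points reach it in TAMo.

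Positions of summits were largely the same in both libraries. Of the vehicle summits in wide distal regions, 83.3% had a TAMo summit within 50 bp, against 88.2% in wide promoter peaks. The summit that was highest in vehicle was also the highest in TAMo in 753 of 966 regions (78.0%), against 85.8% of wide promoter peaks. These shares have no replicate to set them against, and both classes share the same 2 libraries.

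TAMo peaks covered nearly all of the regions. A TAMo peak overlapped 971 of 972 (99.9%), where 86.1% of all distal vehicle peaks were overlapped, and the median region was covered over 97.4% of its length. The exception was chr15:5758266-5759347, an intergenic region with 312 vehicle reads and 2 summits, which lay 514558 bp from the start of Ptger4, a prostaglandin receptor gene, and had no TAMo peak. Such overlap was not particular to the wide regions. A TAMo peak overlapped 99.8% of distal vehicle peaks from 800 bp to under 1000 bp and 99.3% of those from 600 bp to under 800 bp. A TAMo peak of 1000 bp or more overlapped 628 regions (64.6%, interval 61.6 to 67.6), where 2.04% of all distal vehicle peaks and 79.3% of wide promoter peaks had one. In 271 regions the interval was broken into 2 or more TAMo peaks. Where no TAMo peak reached 1000 bp, the widest had a median of 803 bp. The share with a wide TAMo peak rose with vehicle width, from 59.2% of regions under 1200 bp to 74.9% of those from 1200 bp to under 1500 bp and 84.2% of those of 1500 bp or more. The TAMo limit was 1000 bp in each class, so part of this rise is fixed in advance. Median vehicle coverage rose as well, from 395.5 to 466 and 480 reads.

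The same rule applied to the TAMo list gave 1435 wide distal regions. That list held 179414 distinct peaks, and the vehicle list, with 972 such regions, held 127423, so the TAMo list was also the longer one. Of these, 626 (43.6%) were overlapped by a vehicle peak of 1000 bp or more, and 21 by no vehicle peak. The median log2 ratio was 0.15 at regions wide in both libraries, -0.04 at the 343 regions wide in vehicle alone with a TAMo summit and 0.62 at the 788 wide in TAMo alone. The rule itself fixes part of this order, since each list was chosen by its own library's width.

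Coverage at the wide distal regions was close to equal in the 2 libraries. The median log2 ratio was 0.08 (quartiles -0.21 and 0.40), against 0.39 in narrower distal peaks and 0.01 in wide promoter peaks. Relative to the median of all shared peaks, the regions' median was -0.20. TAMo coverage was at least 2-fold higher at 50 of 971 regions (5.15%), where 25.8% of all distal vehicle peaks were, and at least 2-fold lower at 54 (5.56%), where 3.56% were. Centred on all shared peaks, 28 regions were higher and 81 lower, where 18.5% and 6.84% of all distal vehicle peaks were. Before centring, the counting interval lay above 0 in 401 regions, below 0 in 256 and across 0 in 314. No such counts are given after centring or over all distal peaks, so these have no share to set them against. The median itself went from 0.08 to -0.20 with centring. The larger count above 0 is therefore not read as more gains than losses in TAMo.

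**Figure D2:**
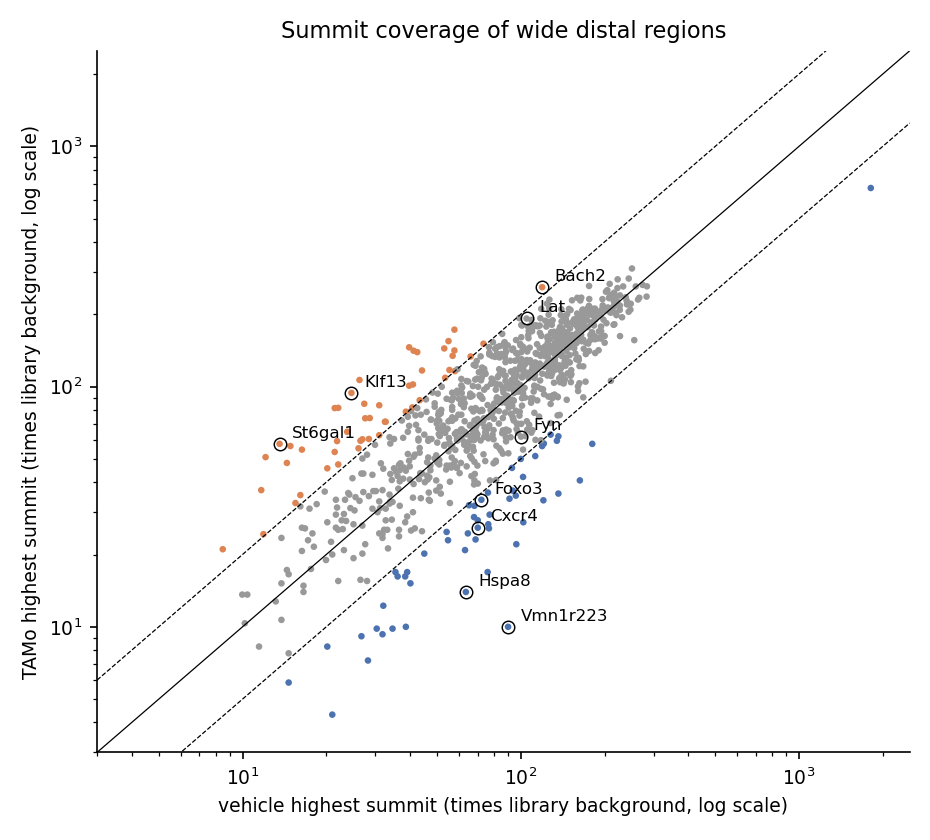
Highest summit of each wide distal region in vehicle (x axis) and TAMo (y axis), each in multiples of its library's background on log scales. The solid line is equality and the dashed lines 2-fold; 50 regions lie above the upper dashed line, 54 below the lower one, and circled points are named by the nearest coding start.

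Most of this distance from narrower peaks went with coverage. Vehicle coverage is also the denominator of the ratio, so a fall of the ratio across bands is partly fixed in advance. Among distal peaks of 200 to 399 vehicle reads, the median log2 ratio was 0.12 in 288 wide regions and 0.13 in 9840 narrower peaks. From 600 to 999 reads it was 0.03 and -0.01, and under 100 reads 0.42 and 0.58. At least 2-fold higher TAMo coverage was seen in 26.2% of the 42 wide regions under 100 reads and in 34.0% of narrower peaks of that coverage. At 400 to 599 reads the shares were 0.437% and 1.03%, and at 600 to 999 reads 0% in both classes. At least 2-fold lower coverage was seen in 7.14% of wide regions and 2.18% of narrower peaks under 100 reads. From 100 to under 200 reads these shares were 9.02% and 5.76%, and from 200 to 399 reads 6.25% and 7.09%. They were 6.11% and 6.19% from 400 to 599 reads, and 2.5% and 2.06% from 600 to 999. In the plot of ratio by coverage, the medians of the 2 classes lie within each other's quartiles in each band.

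**Figure D3:**
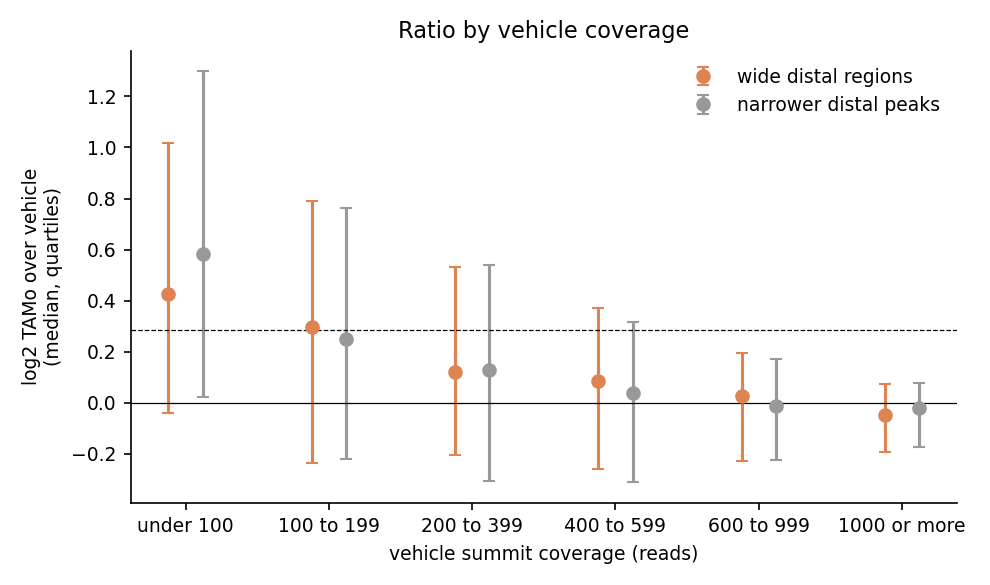
Median log2 ratio of TAMo over vehicle (y axis, bars span the quartiles) in bands of vehicle summit coverage (x axis, reads) for wide distal regions and narrower distal peaks. The dashed line is the median of all shared peaks, 0.28, and both classes fall as vehicle coverage, the denominator of the ratio, grows.

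The 5 regions with the highest ratios were all thinly covered in vehicle. The region nearest to St6gal1, a sialyltransferase gene (chr16:23358057-23359281, in an exon of St6gal1), had 64 vehicle and 335 TAMo reads, a log2 ratio of 2.09 (1.70 to 2.50). An intronic region of Vapb, which encodes a tethering protein of the endoplasmic reticulum (chr2:173743890-173744964), had 57 and 295 reads (2.07, interval 1.66 to 2.51). Near Spag9, a scaffold gene of the JNK pathway, an intergenic region (chr11:93987110-93988384) had 124 and 618 reads (2.02, interval 1.74 to 2.31). TAMo was the high library in each of these, and each had a TAMo peak of over 1000 bp. Klf13 encodes a zinc-finger factor known to drive late Ccl5 transcription in T cells. Its intergenic neighbour (chr7:63965226-63966751) had 116 vehicle and 546 TAMo reads (1.93, interval 1.64 to 2.24), and 1.20 when all summits were averaged. The region near Srsf7, a splicing factor gene (chr17:80198791-80199968), had 70 and 328 reads (1.93, interval 1.55 to 2.32). That value paired different summits: at the place of the highest vehicle summit the ratio was -1.0, because the TAMo maximum stood at another summit.

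The 5 lowest ratios came from regions with 99 to 454 vehicle reads. An intergenic region of chromosome 13 nearest to the vomeronasal receptor gene Vmn1r223 (chr13:23298494-23299679) had 424 vehicle and 58 TAMo reads, a log2 ratio of -3.17 (-3.59 to -2.77). One near Lpgat1, a phospholipid acyltransferase gene (chr1:191704605-191705896), had 99 and 25 reads (-2.29, interval -2.98 to -1.64, and -1.61 over all summits). One near Hspa8, which encodes the constitutive HSP70 chaperone (chr9:40806227-40808063), had 299 and 81 reads (-2.18, interval -2.56 to -1.83, and -2.88 at its highest vehicle summit). Vehicle was the high library in all 3, and at Hspa8 an interval of 1837 bp in vehicle was left with a widest TAMo peak of 357 bp. An intergenic region 554037 bp from Mki67, whose protein marks cycling cells (chr7:136269791-136270927), had 358 and 98 reads (-2.17, interval -2.51 to -1.84). An intronic region of Orc3, a subunit gene of the origin recognition complex (chr4:34580918-34582181, nearest start Akirin2), had 454 and 128 reads (-2.13, interval -2.42 to -1.84).

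Several of the widest regions were also low in TAMo. The widest of all (chr17:39843148-39846733, 3586 bp, 11 summits) lay over Gm26917, which in this assembly overlaps a copy of the ribosomal RNA precursor. Its vehicle coverage was 8530 reads over a local background of 3156, where the median background of wide distal regions was 31.3. Reads from the other copies of that gene can map there, so its TAMo coverage of 3891 reads is given without a ratio, although the region is counted among the 54. Second in width was an intergenic region near Pisd, a mitochondrial phospholipid enzyme gene (chr5:32712314-32714295, 1982 bp, 7 summits), with 527 vehicle and 585 TAMo reads (-0.15, interval -0.32 to 0.02). Rpl3, a ribosomal protein gene (chr15:80075791-80077662, 1872 bp), had 643 and 360 reads (-1.14, interval -1.33 to -0.95). A region of 7 summits near Hnrnpa2b1, an RNA-binding protein gene (chr6:51458904-51460661), had 151 and 71 reads (-1.39, interval -1.82 to -0.97). Others of this size went the other way or stayed level. Prr7 (1918 bp) had 294 and 497 reads (0.46, interval 0.25 to 0.67), and Zfp958 (1936 bp) had 1099 and 1515 (0.16, interval 0.05 to 0.28). Of the 57 regions of 1500 bp or more, 2 were at least 2-fold higher in TAMo and 6 at least 2-fold lower, the Gm26917 region among the 6. Over all wide distal regions these shares were 5.15% and 5.56%. The median log2 ratio of the 57 was 0.10, against 0.08 in regions from 1000 bp to under 1200 bp, so this width class was not lower as a whole.

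Summits of one region did not always move together. In 885 regions at least 2 vehicle summits had a TAMo summit within 50 bp, and the range of their log2 ratios had a median of 0.48. In 132 of them the most different summits were over 2-fold apart, and in 2 regions one summit was at least 2-fold higher in TAMo and another at least 2-fold lower. The first was an intron of Map4k1, which encodes HPK1, a kinase that dampens T cell receptor signalling (chr7:29000626-29001783). Its 3 summits had 98, 216 and 532 vehicle reads and 348, 192 and 184 TAMo reads, log2 ratios of 1.53, -0.47 and -1.83, so the last summit was the highest in vehicle and the first in TAMo. The second lay 15241 bp from Gm9040 on chromosome 10 (chr10:118310683-118311927). Its 4 summits had 117, 84, 35 and 123 vehicle reads and 44, 52, 79 and 321 TAMo reads, with log2 ratios from -1.71 to 1.08 in that order along the chromosome. Ranges were not taken for other peaks with several summits, so the 132 and 2 regions have no share to set them against.

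**Figure D4:**
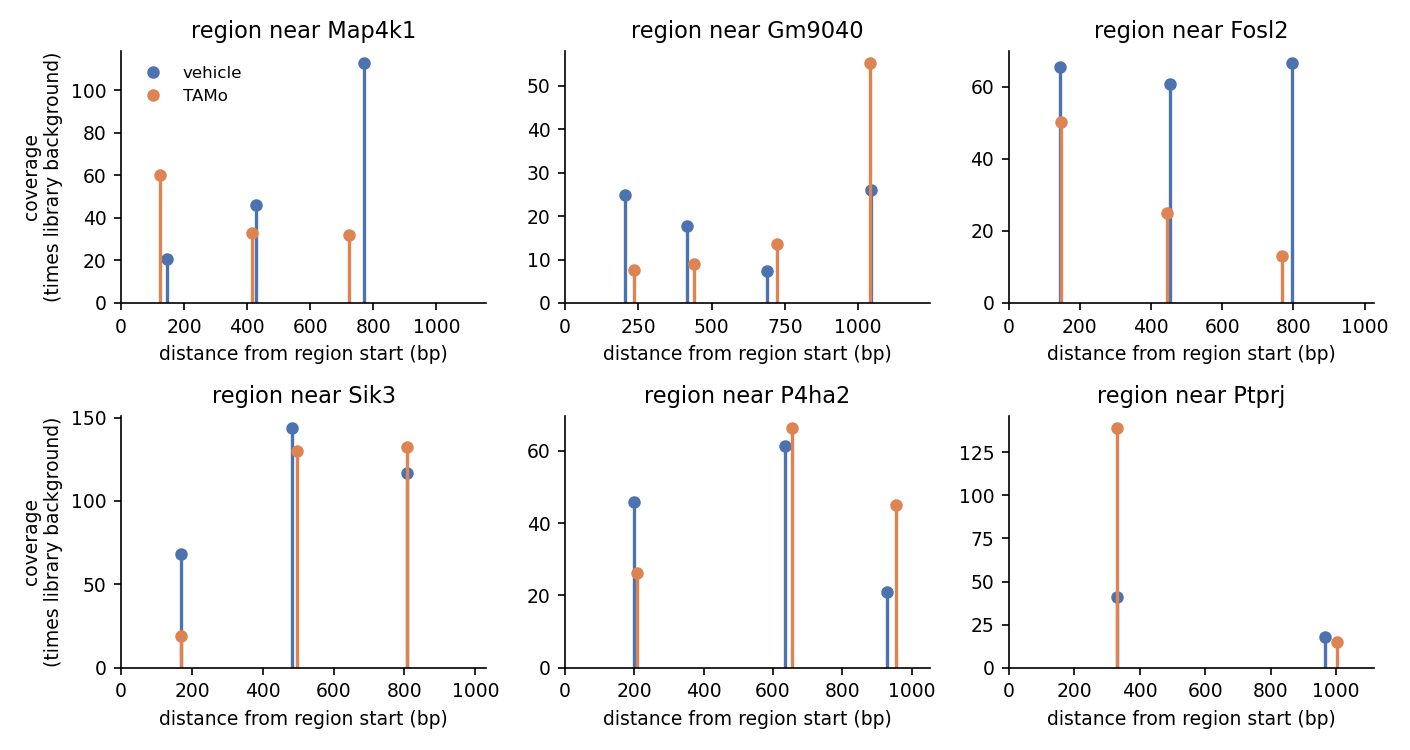
Summits within 6 wide distal regions, by distance from the region's start (x axis, bp) and coverage in multiples of the library background (y axis), for vehicle summits with a TAMo summit within 50 bp. Near Map4k1 and Gm9040 the tallest summits change place or size between libraries, and near Fosl2 the TAMo summits fall along the region while the vehicle ones stay level.

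In the other panels only part of the region differed. The region nearest to Fosl2, an AP-1 subunit gene, lies in an intron of Babam2 (chr5:32013091-32014116). Its summits had 308, 286 and 314 vehicle reads against 291, 145 and 76 in TAMo, and the log2 ratio went from -0.38 to -2.35 along it. In an intron of Sik3, a salt-inducible kinase gene (chr9:46046453-46047483), the first summit had 320 vehicle and 110 TAMo reads (-1.84), while the other 2 had 678 and 550 vehicle and 752 and 766 TAMo reads (-0.15 and 0.18). Ptprj encodes the receptor phosphatase CD148. One summit in its intron (chr2:90496165-90497279) had 194 vehicle and 807 TAMo reads (1.76) and the other had 83 and 86 (-0.25). In an intron of P4ha2, a collagen prolyl hydroxylase gene (chr11:54126671-54127723), the 3 summits had log2 ratios of -0.81, 0.11 and 1.10. These regions were chosen by their range of ratios, and a highest-summit ratio does not show such changes: the Fosl2 and Sik3 regions had -0.41 and -0.12.

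Some regions held a start site that the rule did not use. An annotated start of some kind lay inside 169 (17.4%). In 114 it belonged to a noncoding gene, most often a lincRNA (42 regions), and in 63 to a transcript of a coding gene outside the basic set, with both kinds in 8. A TAMo peak of 1000 bp or more overlapped 79.3% of the regions with a start inside (interval 72.6 to 84.7) and 61.5% of those without (58.1 to 64.8). At least 2-fold change in either direction was seen in 5.33% and 11.8%. Median vehicle coverage was 446 and 415 reads. Chaserr, a lncRNA gene known to repress its neighbour Chd2, lay in a region with 1122 vehicle and 1366 TAMo reads (-0.02, interval -0.13 to 0.10). The Gm16191 region (chr17:28924974-28926197) had 272 and 1001 reads (1.58, interval 1.38 to 1.78), and the Gm30771 region 460 and 373 (-0.60, interval -0.80 to -0.40). The 1700029M03Rik region near Xcl1 had 236 and 339 (0.22, interval -0.02 to 0.47).

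Most wide distal regions had no other wide distal region within 10 kb. Narrower peaks were not counted as neighbours, and no spacing of other distal peaks is given for comparison. With a gap of up to 10 kb between edges, 34 of them (3.50%) formed 17 pairs, and no group was larger. With a gap of up to 50 kb, 150 regions formed 70 groups, 10 of them of 3. The closest pair stood 68 bp apart near Fnbp1, a gene of membrane curvature, and its members had log2 ratios of 0.47 and 0.48. The pair in Fyn, which encodes a Src-family kinase of T cell receptor signalling, had 373 vehicle and 365 TAMo reads (-0.33, interval -0.54 to -0.12) and 472 and 359 reads (-0.70, interval -0.90 to -0.49). Members of a 50 kb group differed by a median of 0.385 on the log2 scale. The widest spread was at Nmur1, Tex44 and Ptma, with 1.88, -0.51 and -0.12.

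A region is named here by the nearest protein-coding start within 100 kb, which does not show that it acts on that gene. Of the regions, 859 had such a gene, and the genes numbered 789, or 3.8% of 20780. Of these, 729 had 1 region, 50 had 2 and 10 had 3. The 10 were Bach2, Prdm1, Chd2, Chsy1, Cstad, Rreb1, Macf1, Ezr, Arid5b and Ndfip1.

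Bach2 encodes a repressor that holds back effector differentiation, and its 3 regions differed from one another. The one 74321 bp from its start (chr4:32163998-32165255) had 562 vehicle and 1504 TAMo reads, a log2 ratio of 1.12 (0.98 to 1.26), or 0.84 relative to all shared peaks and 0.90 when all summits were averaged. Its intronic regions had 1019 and 1259 reads (chr4:32250224-32251388, 0.00, interval -0.12 to 0.13) and 953 and 1440 reads (chr4:32343270-32344617, 0.30, interval 0.18 to 0.41). The first was at least 2-fold higher in TAMo, and the second was level. A further wide distal region lay 2372 bp past the end of Bach2 (chr4:32587527-32588910) and was not among its 3 by nearest start within 100 kb. It had 751 vehicle and 916 TAMo reads (-0.01, interval -0.15 to 0.13).

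Prdm1 encodes Blimp-1, which drives terminal effector differentiation. Its regions (chr10:44380396-44381652, chr10:44419567-44420677 and chr10:44447350-44448456) had 663, 218 and 467 vehicle reads and 776, 238 and 456 TAMo reads. The log2 ratios were -0.07 (-0.22 to 0.08), -0.17 (-0.44 to 0.10) and -0.33 (-0.52 to -0.15). The interval lay below 0 in the third, which is intronic, and at its highest vehicle summit the ratio was -1.17.

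Chd2, a chromatin remodeller gene, had 3 level regions with log2 ratios of -0.02, 0.03 and 0.10. At Chsy1, a chondroitin synthase gene, they ran from 0.71 (0.56 to 0.86) in the intron to -0.68 (-1.0 to -0.36) in the farthest, with 190 vehicle and 146 TAMo reads. Ezr, which encodes the membrane linker ezrin, had -0.46, -0.43 and 0.20. Ndfip1, an adaptor of ubiquitin ligases that restrains T cells, had -0.47 (0.22 over all summits), -0.06 and 0.86. Cstad had 0.64, -0.01 and 0.41, Macf1 had -0.49, 0.81 and 0.22, Arid5b had 0.48, -0.05 and 0.33, and Rreb1 had -0.18, 0.08 and -0.03. At Chsy1, Ndfip1 and Macf1 the interval of one region lay above 0 and that of another below 0.

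Genes of the T cell lists often had a wide distal region nearby. Of 225 genes on 9 lists, 48 (21.3%) had one, where 3.8% of all coding genes had. Of the 44 genes on the myeloid, B cell and neuronal lists, 0 had one, which allows a share of up to 6.82% (3 of 44, a limit for counting error only). Genes of the T cell lists also had many distal peaks of any width, with list medians of 8 to 27 per gene against 2 over all coding genes. Wide regions made up 60 of their 4265 distal peaks (1.41%, interval 1.09 to 1.81), against 0.938% of all distal peaks with a gene within 100 kb. The lists differed in this share. It ran from 0.587% for inhibitory receptors and exhaustion to 3.03% for effector genes. For T lineage and quiescence factors it was 0.880% of 1136 peaks, below that of all distal peaks. In the other-lineage lists wide regions made up 0 of 232, which allows up to 1.29% (3 of 232). Counted by gene body with 10 kb on either side, 29 genes of the T cell lists (of the same 225) had one, where 3.27% of all coding genes had.

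**Figure D5:**
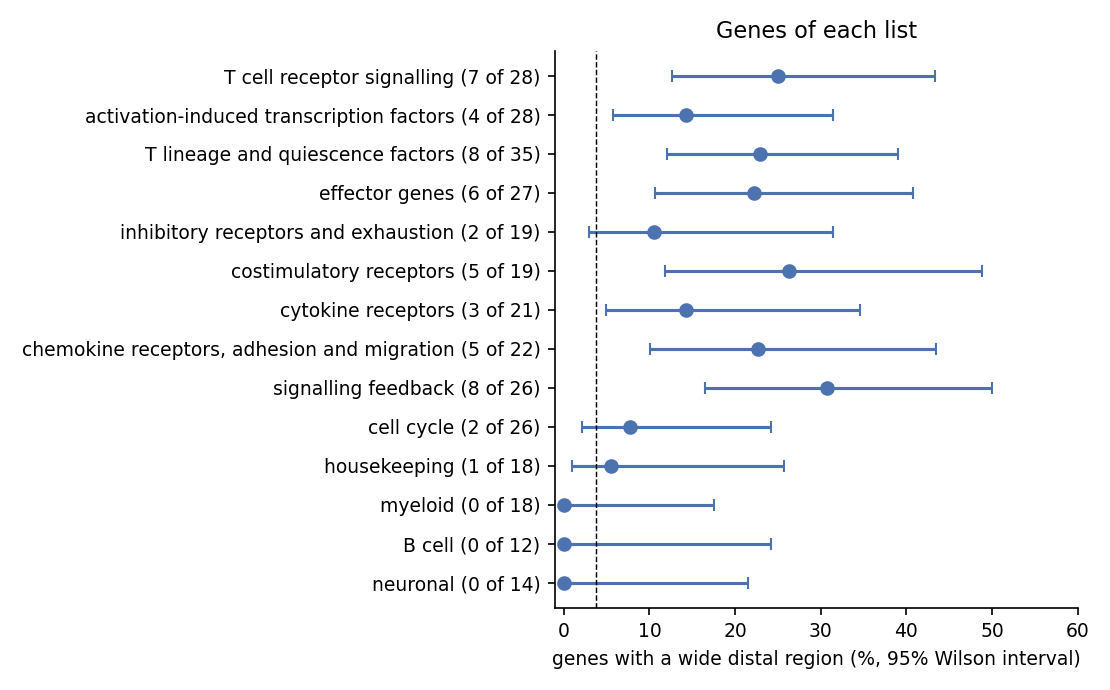
Share of each list's genes that were nearest to a wide distal region (x axis, %, with 95% Wilson intervals), with counts beside each name. The dashed line is the share of all coding genes, 3.8%; the 9 T cell lists, cell cycle and housekeeping lie above it, with the line inside the interval for these last 2 and for inhibitory receptors, and the myeloid, B cell and neuronal lists are at 0.

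For T cell receptor signalling, 7 of 28 genes had 9 regions with a median log2 ratio of 0.27, close to that of all shared peaks, and none of the 9 was 2-fold different. Lat encodes the membrane adaptor that assembles the signalling complex. Its region (chr7:126339314-126340695) had 494 vehicle and 1114 TAMo reads (0.87, interval 0.72 to 1.03), but 0.12 when all summits were averaged. Lcp2, which encodes the adaptor SLP-76, had a region with 1167 and 1212 reads (chr11:34009778-34011165, -0.25, interval -0.36 to -0.13) and one with 862 and 1138 (chr11:34033904-34035109, 0.10, interval -0.03 to 0.23). At Cd3d (chr9:44985877-44987324), a receptor subunit gene, the exonic region had 934 and 1101 reads (-0.06, interval -0.19 to 0.06). Cd247, the zeta chain gene, had 651 and 968 (0.27, interval 0.13 to 0.42). The activator gene Rasgrp1 had 0.31 and 0.50, Bcl10 had 0.50 and Prkcq had -0.12.

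Of activation-induced transcription factors, 4 of 28 genes had 6 regions, with a median of 0.00 and none 2-fold different. Nfatc2 had 2 intronic regions that went apart. At chr2:168524863-168526011 it had 262 vehicle and 190 TAMo reads (-0.76, interval -1.04 to -0.49) and at chr2:168556337-168557345 it had 142 and 213 (0.28, interval -0.03 to 0.60). Nfatc1 had -0.05 and -0.23, Nr4a3, an orphan receptor induced by receptor signalling, had 0.19, and the hypoxia factor gene Hif1a had 0.05.

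T lineage and quiescence factors had 10 regions at 8 of 35 genes, with 2 at least 2-fold higher (Bach2 and Klf13) and 1 lower. The lower one was near Foxo3 (chr10:42293660-42294811), which encodes a forkhead factor of quiescence, with 340 vehicle and 196 TAMo reads (-1.10, interval -1.36 to -0.84), and -0.98 over all summits. Id3, an inhibitor of E proteins that marks memory precursors, had 406 and 381 reads (-0.39, interval -0.60 to -0.19). Bcl11b, a factor of T cell identity, had 585 and 1284 (0.83, interval 0.69 to 0.98). Ets1 had 0.34, and Tcf12 and Il7r had -0.29 and -0.27.

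Effector genes had 10 regions at 6 of 27 genes, with a median of -0.06 and none 2-fold different. Ccl5, a chemokine of effector and memory CD8+ T cells, had 1058 vehicle and 1260 TAMo reads (chr11:83534384-83535406, -0.05, interval -0.17 to 0.07) and 774 and 959 (chr11:83550068-83551377, 0.01, interval -0.13 to 0.15). Fasl, a death ligand gene, had 505 and 402 (chr1:161693268-161694311, -0.63, interval -0.82 to -0.44) and 733 and 1057 (chr1:161734210-161735492, 0.23, interval 0.09 to 0.37, and 0.87 over all summits). Both Ccl5 regions were level, and the Fasl regions lay on either side of 0. Serpinb9, an inhibitor of granzyme B, had -0.04, and Tnfsf10, which encodes TRAIL, had -0.42.

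Receptors were mixed. Costimulatory receptors had 5 regions at 5 of 19 genes, all with a ratio above 0 and a median of 0.33. Slamf6 (chr1:171938518-171939828) had 533 vehicle and 1045 TAMo reads (0.67, interval 0.52 to 0.82) and Slamf1 (chr1:171761776-171762851) had 267 and 547 (0.73, interval 0.52 to 0.95). Both are SLAM family genes of chromosome 1. Tnfrsf18, Cd44 and Tnfsf8 had 0.28, 0.30 and 0.33, at or little above the median of all shared peaks. Inhibitory receptors and exhaustion genes had 2 regions at 2 of 19 genes, near Cd200 (0.50) and Lgals3 (0.84, interval 0.66 to 1.03).

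Cytokine receptors had 3 regions at 3 of 21 genes, with 1 interval below 0. Il2rb, the beta chain of the IL-2 and IL-15 receptors (chr15:78510121-78511120), had 638 and 527 reads (-0.58, interval -0.75 to -0.41). Ifngr2 had -0.06 (-0.18 to 0.06) and Il10ra had -0.25 (-0.50 to 0.00), both intervals including 0. Chemokine receptors, adhesion and migration genes had 6 regions at 5 of 22 genes. Cxcr4, a homing receptor for bone marrow, had one of 330 vehicle and 150 TAMo reads (chr1:128518592-128519610, -1.44, interval -1.73 to -1.16, and -2.36 at its highest vehicle summit) and one of 520 and 1022 reads (chr1:128548526-128549716, 0.67, interval 0.52 to 0.83). The first was lower in TAMo and the second higher. Ccr1, Ccr4 and Itgb7 had 0.03, -0.25 and -0.02.

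By nearest start, signalling feedback had the largest share of genes among these lists, with 9 regions at 8 of 26 genes. Of these regions, 1 was higher and 1 lower by 2-fold. By gene body and 10 kb either side, only 2 of its 26 genes had one. By that rule T cell receptor signalling had 5 of 28 and costimulatory receptors 4 of 19, so the rank depends on the rule. Dusp4, a nuclear MAP kinase phosphatase gene (chr8:34797722-34798731), had 77 vehicle and 317 TAMo reads (1.74, interval 1.38 to 2.12). Socs1, a brake on cytokine signalling, had 330 and 161 (chr16:10724642-10725695, in an intron of Clec16a, -1.34, interval -1.62 to -1.06). The other phosphatase genes Dusp5, Dusp1, Dusp6 and Dusp10 had ratios from -0.76 (Dusp10) to 0.38 (one of 2 at Dusp5). Spry1 had 0.43 and Nfkbia 0.46. Cell cycle genes had regions at 2 of 26 (Ccnd2, -0.23, and Ccne1, 0.09), and housekeeping genes at 1 of 18 (Eef1a1, -0.53, interval -0.74 to -0.31).

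Wide distal regions in the T cell receptor loci were counted beside their share of all distal vehicle peaks, 0.925%. The Tra locus had 1 among 172 distal peaks (chr14:53643287-53644406), with 133 vehicle and 42 TAMo reads (-1.96, interval -2.50 to -1.45). The Trb locus had 2 among 73, with 473 and 406 reads (-0.52, interval -0.72 to -0.33) and 981 and 1370 reads (0.18, interval 0.06 to 0.30). The Trg and Trd loci had 0 among 19 and 55, and the Trd locus lies within the Tra locus. With counts this small, no scarcity or excess is read from them.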

How the data were processed

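ATAC-seq was read from 1 vehicle and 1 TAMo library of CD8+ T cells, made with a Vazyme kit and paired sequencing, per the labels' protocols. Trimmomatic 0.36, Bowtie2, MACS2 and the mm10 build are named in the submitters' processing notes. The deposited narrowPeak lists give, for each summit, a score, a fold ratio over background, a −log10 p and a −log10 q, all as the authors' peak caller wrote them. No read counts were given, and whole-read coverage at each summit was recovered from the deposited fold and −log10 p, within a tolerance of 1% of a step. It failed for 30 of 163215 vehicle and 48 of 225656 TAMo summits. The recovery was tested on simulated data.

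Start sites were all transcripts of protein-coding genes in GENCODE M21 (basic set), and "any start" used its full set. Lists were compared by an overlap of at least 1 bp, and summits were matched within 50 bp. Coverage was divided by each library's most frequent background. Shares carry 95% Wilson intervals and ratios 95% exact binomial intervals, for counting error only. Beside a count of 0, the limit printed is 3 counts of the total. Regions were named by rank in width, summits, ratio, clusters and regions per gene, by having no TAMo peak, and by up to 4 genes per list. A few regions that the rule names are not reported here. Genes outside that rule are in the within-region summit account and the remaining list members. The regions, lists and comparisons were chosen with earlier results of these data known. Python 3.11.15, numpy 2.4.6, pandas 2.3.3, scipy 1.17.1 and matplotlib 3.10.9 were used.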

Additional observations from a re-analysis of the deposited data

How the results depend on the processing

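With 1 library per condition no value has a replicate error, and ratios rest on summit coverage rather than on counts over whole regions. The median log2 ratio of 0.08 became -0.20 when centred on all shared peaks, and 28 regions instead of 50 were then at least 2-fold higher in TAMo. A width limit of 800 bp gave 3217 regions, 28.8% with a wide TAMo peak, 272 higher, 183 lower, 8.14% in clusters and 2254 genes. A limit of 1500 bp gave 57 regions, 100% with a TAMo peak, 84.2% with a wide one, 2 higher, 6 lower, a median of 5 summits, 0% in clusters and 52 genes. Under both limits a wide TAMo peak still meant 1000 bp or more. The shares of 28.8% and 84.2% therefore set unlike widths against each other, which fixes part of their difference in advance. Over 1 kb from every annotated start, 61.0% had a wide TAMo peak. With at least 50% of the region covered, 99.1% had a TAMo peak. Clusters took 6.58% at 20 kb and 15.4% at 50 kb. By gene body and 10 kb either side, 29 genes of the T cell lists had a region instead of 48. The other 37 of 58 values stayed within the interval of a share, within 1.5 times a count, at the same median summit number or within 0.1 of the median log2 ratio. Leaving out the 5 regions of high local background, an alternative added after seeing the data, kept 50 higher and left 53 lower. Among 100 named regions under 3 other ways of taking the ratio (296 values), 143 values left the interval of the reported ratio, 12 moved by over 1.5 times, and 1 region that was 2-fold different changed direction, that near Srsf7 (-1.0 at the TAMo summit within 100 bp). An alternative that needs the genome sequence, without repeat-like regions, was not run. The cause of these changes was not tested. No paired analysis was possible because each condition had 1 library.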

Other observations

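Some wide distal regions lay just past the 3′ ends of genes, a class picked after the values were seen. Of the 972, 70 (7.20%, interval 5.74 to 9.0) were intergenic with the highest summit up to 5 kb downstream of a protein-coding gene's end, against 5.82% of narrower distal peaks. At least 2-fold lower TAMo coverage was seen at 12 of these 70 (17.1%, interval 10.1 to 27.6) and at 42 of the other 901 (4.66%, interval 3.47 to 6.24), and at least 2-fold higher coverage at 2 and 48. Their medians were -0.05 and 0.10, and median vehicle coverage was 457 and 414 reads. Among narrower distal peaks, 2.62% of those downstream of gene ends and 3.60% of the others were at least 2-fold lower.

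A few of the 12 are given here, chosen after their values were seen. Past the end of Hspa8 the region had 299 vehicle and 81 TAMo reads (-2.18). Tap2, a subunit gene of the peptide transporter for MHC class I loading, had 429 and 198 reads at 2562 bp (chr17:34218380-34219438, -1.42, interval -1.67 to -1.17). Sel1l, of the endoplasmic reticulum degradation machinery, had 635 and 345 reads at 2389 bp (chr12:91802925-91804079, -1.18, interval -1.37 to -0.99). Hnrnpa2b1 and Rpl3 had -1.39 and -1.14. No RNA was measured here.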
